A study of Mus musculus with 24 samples.

Results

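The keratins were taken as every gene symbol that is Krt followed by digits alone, which gave 48 genes of the 24346 listed. They were followed by RNA-seq of 24 libraries from the large bowel of mice in a chemical carcinogenesis experiment. All animals had received azoxymethane, a carcinogen, and dextran sulfate sodium, which injures the colon lining (AOM/DSS). The labels call the tissue tumor or normal and the genotype c-MAF_KO or wild type, where c-MAF is a transcription factor encoded by Maf. Titles split the KO label into KO-8-homo, KO-8-hetero and a KO-1-hetero group, each with 3 tumor and 2 normal libraries. The WT label holds WT-young, with 4 tumor and 2 normal libraries, and WT-old, with 1 tumor and 2 normal libraries. The leading numbers 1 and 8, the knockout allele and the ages behind young and old are not explained in the sources used here, and the normal tissue comes from AOM/DSS-treated animals too. Nothing in the labels says that libraries of a group came from separate animals, so p-values measure only the spread between these samples. Values are FPKM, a fragment count divided by transcript length and by the size of the library, so levels of different keratins are compared per length.

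Keratins are the intermediate filament proteins of epithelial cells. A filament is built from pairs of 1 type I (acidic) and 1 type II (basic) keratin, so epithelia express both types together. Of the 48 genes, 25 are type I, 22 are type II and Krt222 is a type I-related gene. The columnar lining of the gut is a simple epithelium and is known for Krt8, Krt18, Krt19 and Krt20. Stratified squamous epithelium uses Krt5 and Krt14 in its basal layer, Krt1 and Krt10 in the layers above in skin, and Krt4 and Krt13 in those layers in the mouth and esophagus. By these roles, 6 genes were grouped as simple keratins, 4 as basal-layer, 11 as suprabasal and 24 as hair follicle, hair and nail keratins, with 3 others.

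Nearly all of these genes lie in 2 clusters, 25 on chromosome 11 and 22 on chromosome 15 of mouse build GRCm38.p6, as placed by RefSeq for the 47 that matched by symbol. Krt32, Krt35, Krt36, Krt13, Krt15 and Krt19 stand next to each other on chromosome 11, from Krt32 starting at 100080848 to Krt19 ending at 100145926. Krt84 lies on chromosome 15 between Krt83 and Krt82. The 250 bases upstream of the start are shown for 5 of the 6 keratins that were each called higher in tumors of both genotype labels. Krt15, the sixth, had no entry in the RefSeq promoter table. Positions are chr11:100105627-100105876, minus strand, for Krt36, chr15:101532821-101533070, minus strand, for Krt84, chr11:100121567-100121816, minus strand, for the first of 2 listed Krt13 starts, chr11:99493121-99493370, minus strand, for Krt23 and chr15:101412153-101412402, plus strand, for Krt7. The Krt36 start used in that table lies inside the span RefSeq gives the gene, 100102012 to 100109487. Capitals mark ATAAA or TATAA within the last 50 bases, letters of the TATA-box kind.
Krt36: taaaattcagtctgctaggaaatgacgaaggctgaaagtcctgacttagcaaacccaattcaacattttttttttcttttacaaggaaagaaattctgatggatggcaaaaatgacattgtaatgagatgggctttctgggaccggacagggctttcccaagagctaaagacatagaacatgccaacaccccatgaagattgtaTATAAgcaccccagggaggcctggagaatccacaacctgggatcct
Krt84: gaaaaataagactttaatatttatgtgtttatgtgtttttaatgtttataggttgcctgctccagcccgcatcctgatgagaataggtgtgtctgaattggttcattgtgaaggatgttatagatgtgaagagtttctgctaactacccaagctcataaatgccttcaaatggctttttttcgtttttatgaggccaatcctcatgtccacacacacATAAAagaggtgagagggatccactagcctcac
Krt13: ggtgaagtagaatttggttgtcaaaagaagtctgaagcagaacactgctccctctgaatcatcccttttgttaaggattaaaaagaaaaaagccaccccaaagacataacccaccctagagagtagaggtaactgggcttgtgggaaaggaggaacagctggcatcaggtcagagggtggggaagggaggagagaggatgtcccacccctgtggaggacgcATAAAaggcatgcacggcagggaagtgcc
Krt23: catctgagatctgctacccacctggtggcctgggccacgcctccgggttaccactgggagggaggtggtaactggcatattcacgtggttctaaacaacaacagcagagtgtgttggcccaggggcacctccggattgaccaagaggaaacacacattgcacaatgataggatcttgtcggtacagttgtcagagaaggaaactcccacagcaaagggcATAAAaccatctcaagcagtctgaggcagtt
Krt7: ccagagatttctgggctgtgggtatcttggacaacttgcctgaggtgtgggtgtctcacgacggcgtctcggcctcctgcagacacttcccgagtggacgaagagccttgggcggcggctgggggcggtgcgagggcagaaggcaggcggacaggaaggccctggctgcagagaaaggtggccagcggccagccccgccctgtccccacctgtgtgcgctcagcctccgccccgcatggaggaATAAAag
The 5 windows shown hold such letters, read in the direction of transcription, but not at 1 position. Relative to the start they begin at -46 in Krt36, -33 in Krt84, -29 in Krt13, -31 in Krt23 and -7 in Krt7. Read in the direction of transcription, the window of the second Krt13 start, chr11:100120578-100120827, has none in its last 50 bases. In that direction 28 of the 35 windows listed for keratins had ATAAA or TATAA there, against 8.7% of all 32851 windows, and on both strands 28 of 35 against 12.7%; the motifs can overlap each other. CTTTGA, the core that TCF/LEF factors of the Wnt pathway recognise, was searched on both strands of the 250 bases and was found in none of these 5, in 7 of the 35 keratin windows and in 13.8% of all windows. A match describes the letters only.

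Relative sequencing depth, read from the most frequent ratio of low FPKM values to those of a reference library, ran from 0.691 to 1.87 between libraries. Tumors labelled KO did not have less Maf than WT-young tumors: it ran from 2.62 to 7.40 FPKM in the first and from 1.63 to 2.26 FPKM in the second. The WT-old tumor was at 7.26 FPKM, so genotypes are given as labels throughout. Xist, an RNA made in female cells, was at 1 FPKM or more in 6 libraries, all of them KO-1-hetero or KO-8-hetero. These were tumor 3, normal 1 and normal 2 of each of these groups. Xist was thus uneven between tumor and normal tissue of the KO label, and between the KO and WT labels, so these comparisons are mixed with it. The part of this unevenness in the keratin differences was not tested. In these bulk samples fewer cells of a type and less RNA per cell cannot be told apart.

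KO-8-hetero tumor 2 and WT-young tumor 2 stood apart in their keratins and are described before the comparisons. Krt5, the type II keratin of basal squamous cells, was at 1163 FPKM in KO-8-hetero tumor 2 and 250.2 FPKM in WT-young tumor 2, and between 0.150 and 0.568 FPKM in the other 22 libraries. Its partner Krt14 was at 3173 and 579 FPKM in these libraries and at most 22.6 FPKM elsewhere. The pair of the mucosal suprabasal layers was also high in both, with Krt4 at 1300 and 60.3 FPKM and Krt13 at 3230 and 140 FPKM, against at most 6.26 and 47.7 FPKM in the other 22. Krt16, a keratin of stressed or fast-growing squamous epithelium, was at 144 and 27.2 FPKM, and at most 2.47 FPKM elsewhere. The lettered relatives Krt6a and Krt6b, which the symbol rule leaves out, followed: 1462 and 849 FPKM in KO-8-hetero tumor 2, 190 and 89.6 FPKM in WT-young tumor 2, and at most 2.28 and 0.336 FPKM elsewhere. In all, 11 keratins were higher in both libraries than in each of the 22 others, and 4 of them, Krt5, Krt14, Krt16 and Krt42, were at least 10 times as high. The 11 include Krt9, Krt24 and Krt75, which were only at 0.0277, 0.0293 and 0.366 FPKM in WT-young tumor 2. The share of all genes that were higher in both libraries was not counted.

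The libraries differed from each other in the keratins of cornified skin. Krt1 and Krt10, the pair of the upper epidermis, were at 786 and 936 FPKM in KO-8-hetero tumor 2 but at 0.166 and 1.17 FPKM in WT-young tumor 2, within the range of the others (0.0859 to 0.252 FPKM for Krt1 and 0.953 to 1.94 FPKM for Krt10). Krt79, found in the upper hair follicle and sebaceous duct, was at 135 FPKM in KO-8-hetero tumor 2 and at most 0.165 FPKM in any other library. The inner root sheath keratins Krt71 and Krt25 were at 20.6 and 15.7 FPKM there and at most 0.0233 and 0.0337 FPKM elsewhere. In all, 12 keratins passed 1 FPKM in KO-8-hetero tumor 2 and in no other library: Krt1, Krt12, Krt25, Krt27, Krt28, Krt31, Krt34, Krt71, Krt73, Krt75, Krt79 and Krt81. This library had the most genes at 1 FPKM or more, 13290. The share of all genes that passed 1 FPKM only there was not counted. WT-young tumor 2 was the only library with Krt42 above 2 FPKM, at 23.2 FPKM, against 1.22 FPKM in KO-8-hetero tumor 2 and at most 0.0355 FPKM elsewhere. Krt42 lies beside Krt17 and resembles Krt14, Krt16 and Krt17 in sequence, so reads can be split among these genes; the same holds for Krt6a with Krt6b and for Krt81, Krt83 and Krt86, and their single values are uncertain.

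Squamous genes other than keratins set KO-8-hetero tumor 2 apart as a sum, and WT-young tumor 2 by its rank in most of these genes but not as a sum. Their sum was 6812 FPKM in KO-8-hetero tumor 2. In WT-young tumor 2 it was 413 FPKM, inside the range of the other 22 libraries (65.5 to 740 FPKM). The highest of those 22 was a normal library, KO-8-hetero normal 1, so the sum also counts genes present in normal tissue. Of 18 such markers, 17 were highest in KO-8-hetero tumor 2, and 13 had WT-young tumor 2 as the next highest library. Trp63, which encodes the basal-cell factor p63, was at 29.6 FPKM and 4.64 FPKM in these libraries and at most 0.0468 FPKM in the others. Lor and Krtdap, genes of the cornified layer, were at 124 and 1194 FPKM in KO-8-hetero tumor 2 and at 0.898 and 5.78 FPKM in WT-young tumor 2. The sebaceous gene Scd3 and the follicle gene Tchh were at 39.7 and 6.76 FPKM in KO-8-hetero tumor 2 and at 0.283 and 0.473 FPKM in WT-young tumor 2. Both libraries held colon epithelium genes as well, with Epcam at 642 and 760 FPKM, inside the range of all tumors (418 to 1103 FPKM). Results that rest on these libraries are given with and without them.

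**Figure D1:**
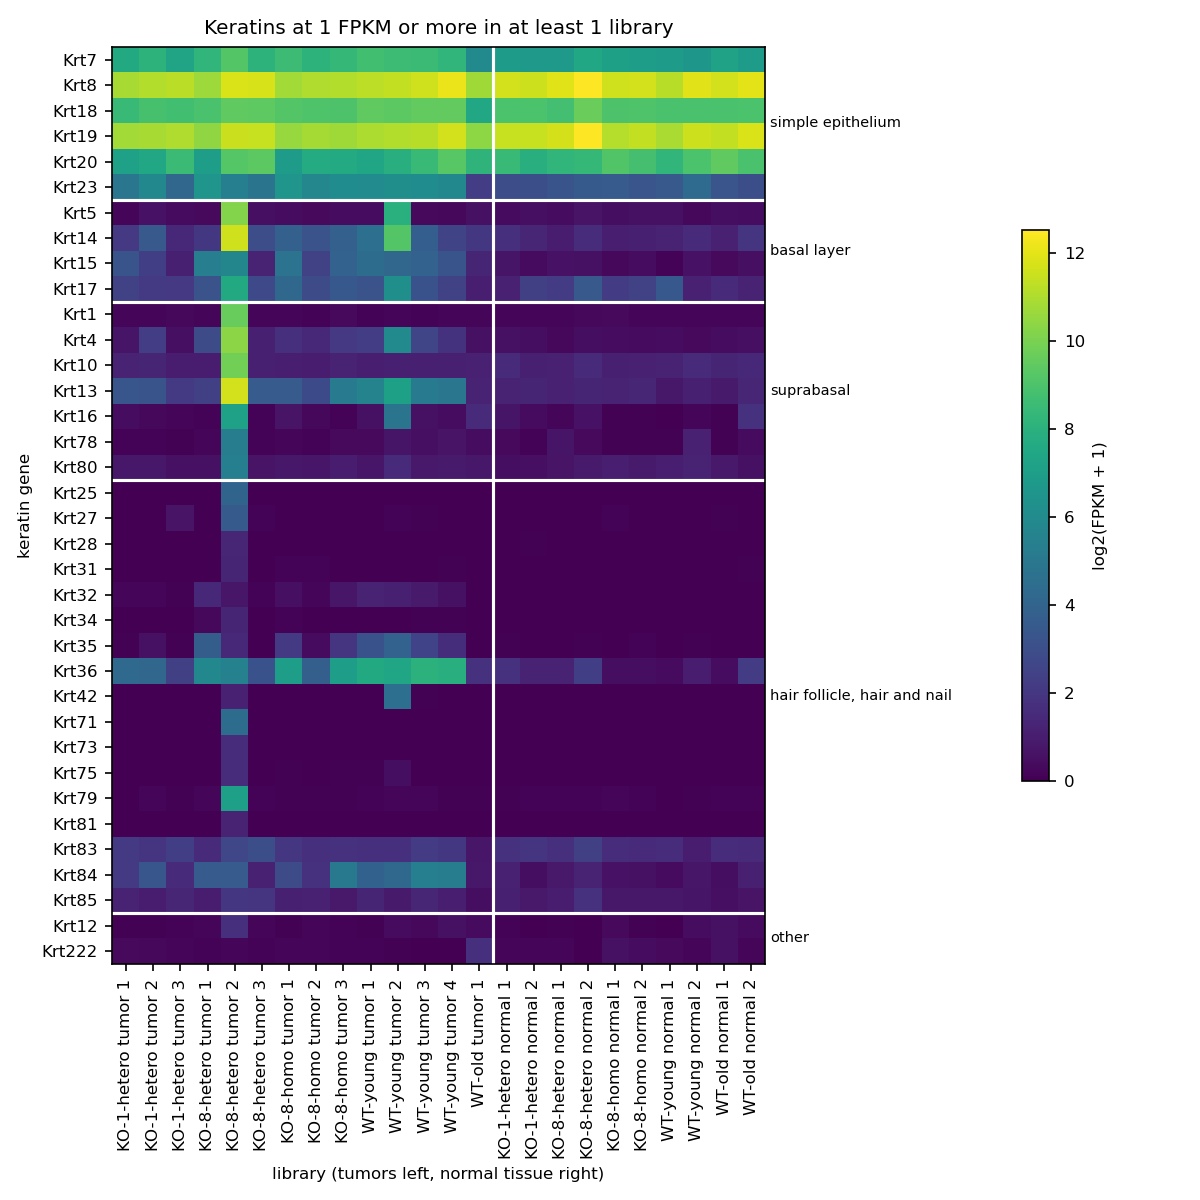
Levels of the 36 keratins that reached 1 FPKM in at least 1 library (rows, grouped by role) in the 24 libraries (columns, tumors left of the white line, normal tissue right); colour is log2(FPKM + 1). The simple keratins fill the top rows in every library, and the column of KO-8-hetero tumor 2 is bright through the basal and suprabasal rows.

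Outside these libraries the colon tissue was a simple epithelium in its keratins. Krt8, Krt7, Krt18, Krt19, Krt20 and Krt23 together made up 94.7% to 99.8% of keratin FPKM in the other 22 libraries, against 42.9% in KO-8-hetero tumor 2 and 81.8% in WT-young tumor 2. Krt8, the type II partner, ran from 1626 to 5819 FPKM over all 24 libraries, and Krt19, its main type I partner, from 1355 to 5893 FPKM. Krt18 ran from 181 to 812 FPKM, Krt20, a keratin of mature enterocytes and goblet cells, from 116 to 697 FPKM, Krt7, better known from ducts and bladder, from 61.1 to 572 FPKM, and Krt23 from 3.86 to 92.3 FPKM. The ranges of Krt8 and Krt19 overlapped almost completely, as did those of Krt18 and Krt20, and Krt8 and Krt19 stood above the other 4 in every library. A further 12 keratins stayed under 1 FPKM in every library: Krt2, Krt9, Krt24, Krt26, Krt39, Krt40, Krt72, Krt74, Krt76, Krt77, Krt82 and Krt86. Only Krt7, Krt8, Krt14, Krt17, Krt18, Krt19, Krt20 and Krt23 reached 1 FPKM in all 24.

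**Figure D2:**
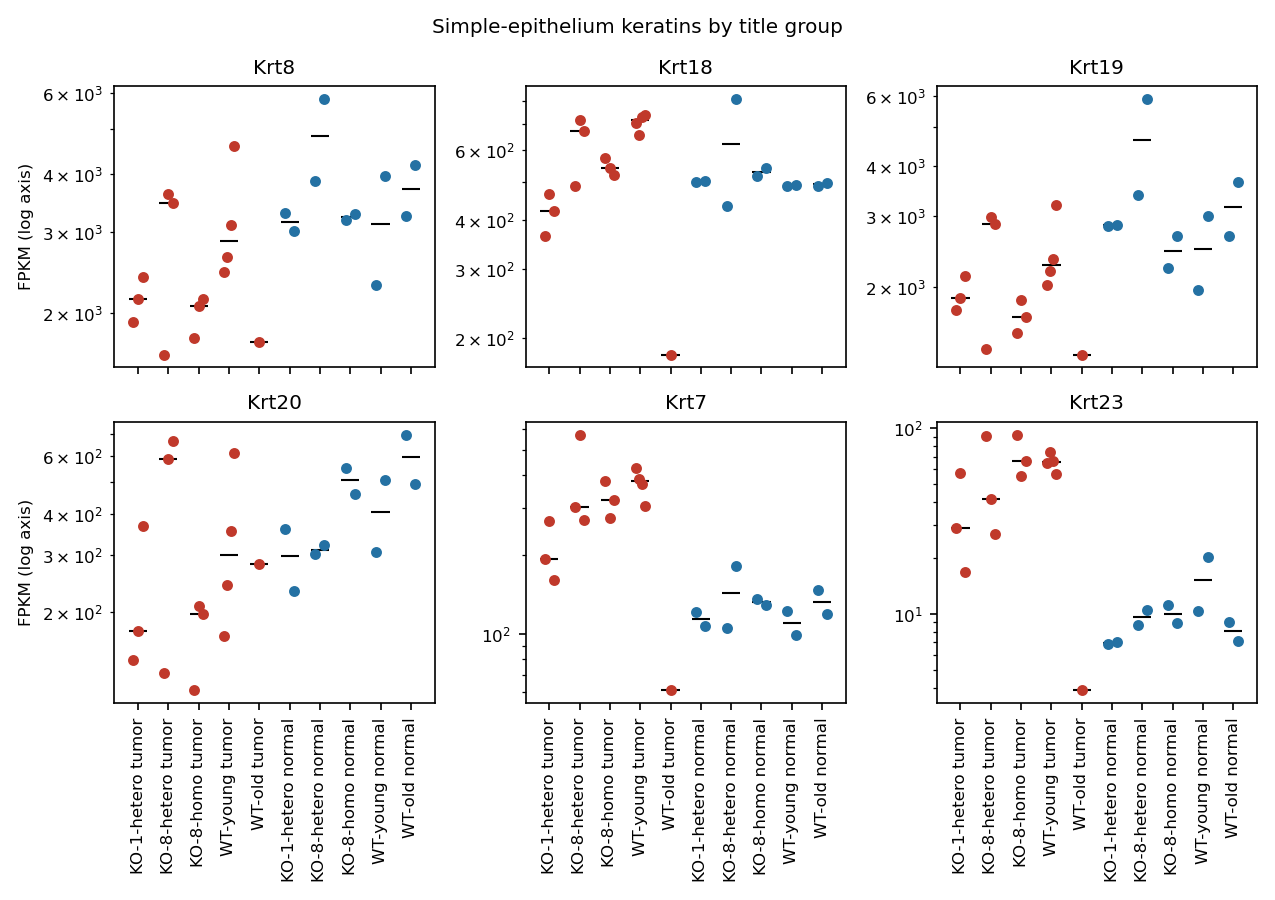
FPKM on a log axis of the 6 simple-epithelium keratins in each title group; each point is 1 library (red tumor, blue normal) and the bar is the group median. Krt7 and Krt23 lie higher in tumors than in normal tissue in every group but WT-old, and Krt8 and Krt19 lie between 1355 and 5893 FPKM throughout.

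The summed type I and type II keratins stayed close to equal in spite of these differences in level. The ratio of type I to type II was 0.992 to 1.17 in the 22 libraries. It was 1.58 in KO-8-hetero tumor 2 and 1.25 in WT-young tumor 2. With the lettered genes Krt6a, Krt6b, Krt33a and Krt33b added, 2 of them type II partners of the squamous type I genes, the ratio was 1.21 and 1.15 in these libraries. Keratins made up 3.44% of all FPKM in KO-8-hetero tumor 2 and 0.706% to 1.61% in every other library.

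**Figure D3:**
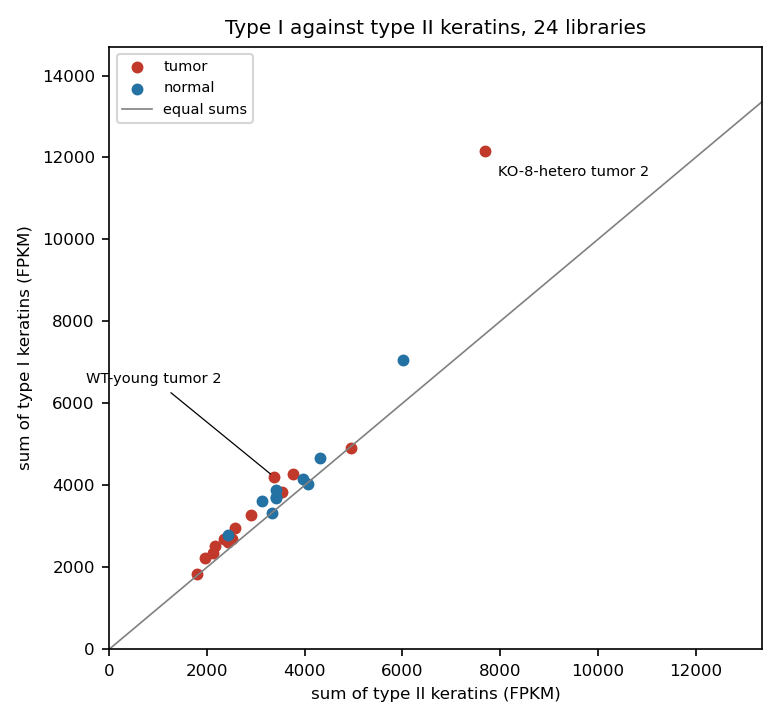
Sum of type I keratins against sum of type II keratins, both in FPKM, in 24 libraries; the line marks equal sums. All points but KO-8-hetero tumor 2 and WT-young tumor 2 have a ratio between 0.992 and 1.17.

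Tumors were then compared with normal tissue within each genotype label, which share no library. Differences are on the scale of log2(FPKM + 1), which understates changes of low genes, and a gene was called at an adjusted p under 0.05 from limma, a linear model fitted to 13799 genes with Benjamini-Hochberg adjustment. Only 19 of the 48 keratins had at least 1 FPKM in at least 4 libraries and were tested; a keratin raised in only a few tumors could enter through those tumors alone, so counts are descriptive. In the WT label 7 of 19 keratins were called, all higher in tumors, where 30.4% of all tested genes were called and 15.5% were called higher. In the KO label 6 were higher and 2 lower, where 47.2% of all genes were called, 24.1% higher and 23.2% lower. Calls in either direction in both labels, and higher calls in the KO label, were near that background. The median difference over the 19 was 1.1 in the WT label and 1.09 in the KO label, against 0.02 over all genes in each. Krt7, Krt13, Krt15, Krt23, Krt36 and Krt84 were higher in both labels, which is 85.7% of the WT calls and 75% of the KO calls.

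Krt36, a type I keratin of hair, nail and the filiform papillae of the tongue, had the largest difference. In the WT label it was at 191, 166, 262 and 237 FPKM in WT-young tumors 1 to 4 and at 2.49 FPKM in WT-old, against 0.279 and 1.02 FPKM in WT-young and 0.344 and 3.60 FPKM in WT-old normal tissue. The 4 young tumors lay far above every normal library, while the WT-old tumor lay inside the normal range. The log2 difference was 5.54 (SE 1.04, adjusted p = 0.000571). In the KO label Krt36 ran from 4.19 to 130 FPKM in 9 tumors (median 18.3) and from 0.384 to 4.08 FPKM in 6 normal libraries (median 1.31). These ranges did not overlap, and the log2 difference was 3.54 (SE 0.81, adjusted p = 0.00133).

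Krt84, a type II hair and tongue keratin from the chromosome 15 cluster, was also higher in tumors of both labels. It was at 13.9, 18, 41.6 and 38.5 FPKM in the young WT tumors and 0.741 FPKM in the old one, and at 0.294, 0.681, 0.397 and 1.14 FPKM in WT normal tissue, a log2 difference of 3.26 (SE 0.73, adjusted p = 0.00231). KO tumors ran from 1.23 to 32.7 FPKM (median 6.56) and KO normal libraries from 0.358 to 1.27 FPKM (median 0.680), a log2 difference of 1.98 (SE 0.58, adjusted p = 0.0076). Both labels overlapped by 1 tumor. Krt35, a type I hair keratin next to Krt36, rose in the WT label by 2.22 (SE 0.66, adjusted p = 0.0143), from at most 0.0687 FPKM in normal tissue to 7.84, 14.4, 4.74 and 2.14 FPKM in the young tumors, and was listed at 0 in the WT-old tumor. Its log2 difference in the KO label was 1.09 (SE 0.52, adjusted p = 0.0857). Of these hair keratins Krt83 and Krt85 were tested too and not called in either label. Krt32, next to Krt35, had too few libraries at 1 FPKM to be tested in the main fit. It passed 1 FPKM only in KO-8-hetero tumor 1 and WT-young tumors 1 and 2. A filter of 2 libraries, which Krt32 passed through tumors alone, let limma call it higher in both labels. The differences were 0.75 (adjusted p = 0.0217) in the WT label and 0.47 (adjusted p = 0.0429) in the KO label. All of the 14 tumor values of Krt32 but 1 exceeded every normal value.

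Krt15, a type I keratin of basal and follicle stem cells, was the only one of these 6 whose 14 tumors all lay above all 10 normal libraries. WT tumors were at 20.7, 16.8, 14.1, 8.52 and, in WT-old, 1.47 FPKM, and normal libraries at 0.0829 to 0.504 FPKM, a log2 difference of 3.02 (SE 0.77, adjusted p = 0.00566). KO tumors ran from 1.17 to 52.5 FPKM (median 8.52) and KO normal libraries from 0.204 to 0.634 FPKM (median 0.408), with a difference of 2.86 (SE 0.61, adjusted p = 0.00067). Krt13 was at 47.7, 140, 35.1 and 29.6 FPKM in the young WT tumors, 1.34 FPKM in the old one and 0.758 to 1.55 FPKM in WT normal tissue, a difference of 3.78 (SE 1.31, adjusted p = 0.0326). In the KO label it ran from 3.30 to 3230 FPKM in tumors (median 9.26) and from 1.23 to 1.5 FPKM in normal tissue, a difference of 2.96 (SE 1.03, adjusted p = 0.0222). Ranges of Krt13 and Krt15 did not overlap between KO tumors and KO normal libraries. Their basal relative Krt14 had higher values in 13 of 14 tumors than in every normal library. It was not called, with a difference of 2.97 (SE 1.45, adjusted p = 0.122) in the WT label and 2.53 (SE 1.14, adjusted p = 0.0719) in the KO label.

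**Figure D4:**
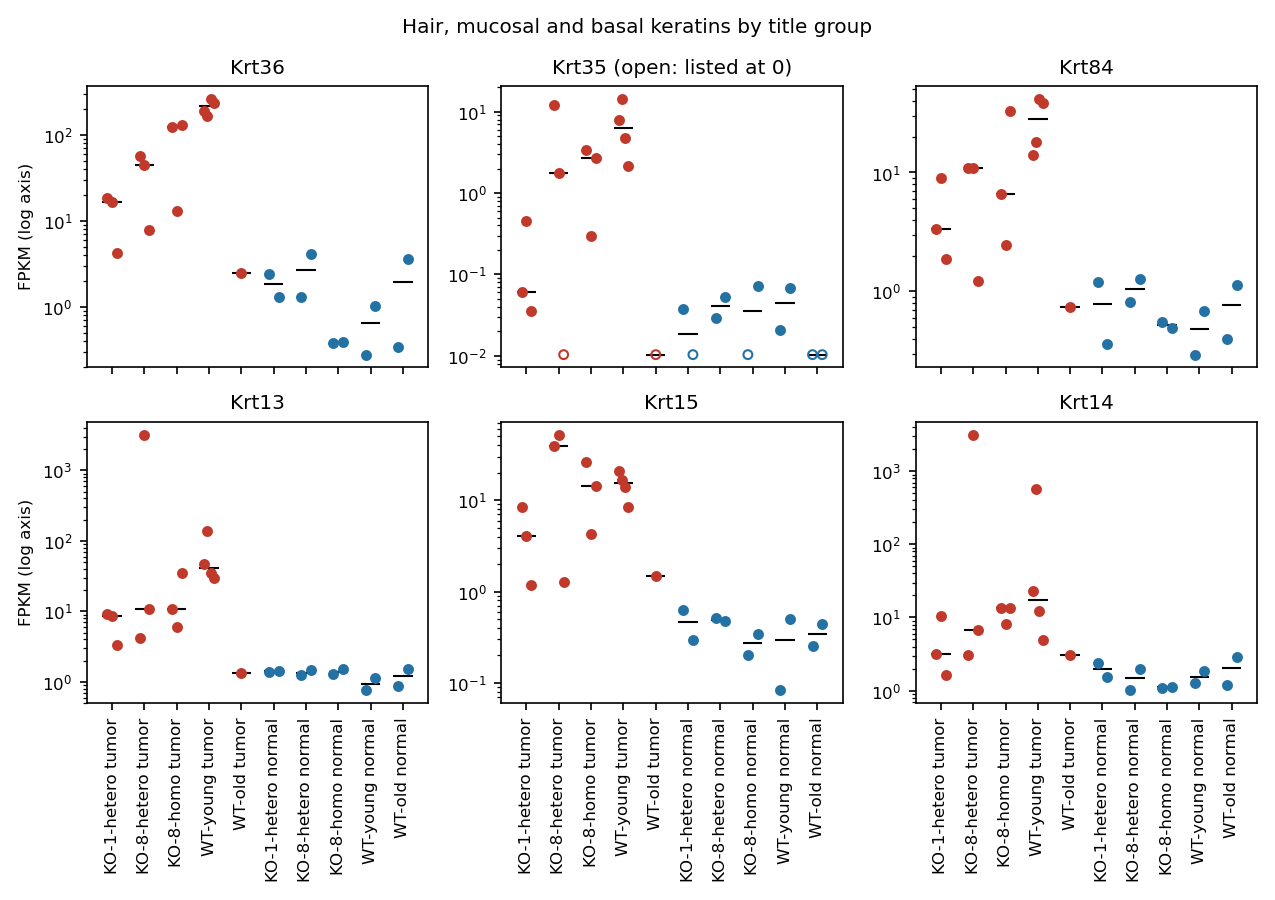
FPKM on a log axis of Krt36, Krt35, Krt84, Krt13, Krt15 and Krt14 by title group; points are single libraries (red tumor, blue normal), bars are group medians, and open points mark values listed at 0, drawn below the lowest value. Krt36 is at 166 to 262 FPKM in the WT-young tumors, above every tumor labelled KO, and at 2.49 FPKM in the WT-old tumor.

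Among the simple keratins the direction was mixed. Krt7 was at 426, 388, 371 and 306 FPKM in the 4 young WT tumors, 61.1 FPKM in the WT-old one and 122, 98.7, 147 and 119 FPKM in WT normal tissue, a log2 difference of 1.1 (SE 0.41, adjusted p = 0.0444). In the KO label it was higher by 1.16 (SE 0.32, adjusted p = 0.00517), with tumors at 160 to 572 FPKM (median 276) and normal tissue at 105 to 181 FPKM (median 125). Krt23 was higher by 1.73 (SE 0.60, adjusted p = 0.0317) in the WT label and by 2.28 (SE 0.47, adjusted p = 0.000523) in the KO label, where tumors ran from 16.8 to 92.3 FPKM and normal tissue from 6.90 to 11.1 FPKM without overlap. For both genes the WT-old tumor was below every normal library and 12 of the other 13 tumors were above all of them. Krt8 and Krt19 were lower in KO tumors by 0.68 (log2 -0.68, SE 0.22, adjusted p = 0.0133) and 0.69 (log2 -0.69, SE 0.22, adjusted p = 0.0131), but quantile normalization turned both differences to 0.21 and 0.18, so their direction depends on the scaling. Krt8 was at 1626 to 3614 FPKM (median 2146) in KO tumors and 3016 to 5819 FPKM (median 3283) in KO normal tissue. Krt20 was not called, with a difference of -0.59 (SE 0.36, adjusted p = 0.180) in the KO label and -0.66 (SE 0.46, adjusted p = 0.275) in the WT label, and neither was Krt18.

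**Figure D5:**
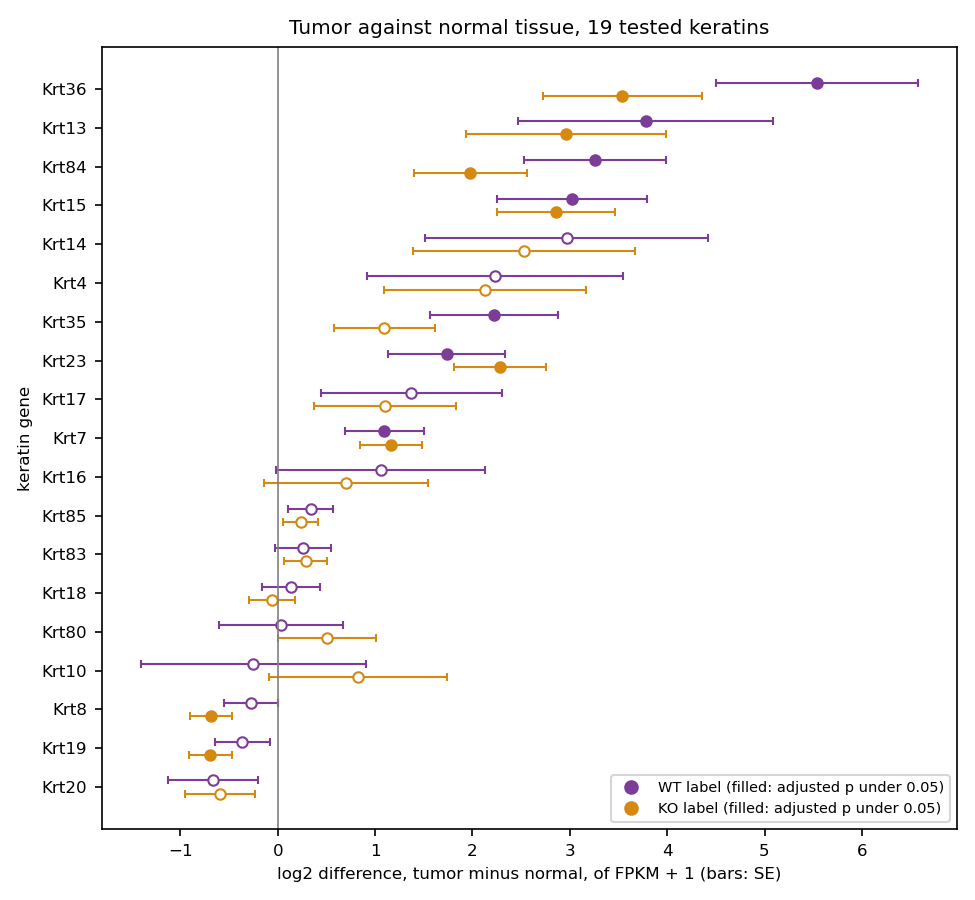
Difference between tumor and normal tissue in log2(FPKM + 1) for the 19 tested keratins in the WT and KO labels; points are limma estimates, bars are standard errors, and filled points have an adjusted p under 0.05. Krt36, at 5.54 and 3.54, lies farthest to the right in both labels, and 17 of 19 keratins have the same sign in both.

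In the WT label 3 tested keratins, Krt4, Krt14 and Krt15, had tumor values that all exceeded the normal values, where 12.3% of all genes did, and Krt10 had tumor values all below, where 10.9% did. In the KO label 4 did, Krt13, Krt15, Krt23 and Krt36, against 8.48% of all genes. Without KO-8-hetero tumor 2 and WT-young tumor 2, an alternative chosen after seeing the data, 6 keratins were higher in the WT label, namely Krt4, Krt13, Krt14, Krt15, Krt36 and Krt84, where 13.2% of all genes were. In the KO label 8 were higher and 2 lower, where 23.4% and 22.3% of all genes were. Krt14 was then higher by 1.78 (adjusted p = 0.0156) and 1.55 (adjusted p = 0.00317), and Krt4 by 1.41 (adjusted p = 0.0177) and 1.16 (adjusted p = 0.00569), in the WT and KO labels. Both libraries were picked on keratin values that include Krt14 and Krt4, so leaving both out can narrow the spread of these genes. With WT-young tumor 2 alone left out, neither was called in the WT label (adjusted p = 0.339 for Krt14 and 0.446 for Krt4). With KO-8-hetero tumor 2 alone left out, neither was called in the KO label (adjusted p = 0.0809 and 0.0741). Without both libraries Krt7, Krt23 and Krt35 lost their call in the WT label (adjusted p = 0.0871, 0.0866 and 0.0501). The WT count was 4 after leaving out WT-young tumor 1, 2 or 3, WT-young normal 1, or WT-old normal 1 or 2, each of which ended the calls of Krt7, Krt13 and Krt23. Without WT-young tumor 4 Krt7 and Krt23 lost their calls, and without WT-young normal 2 Krt7 and Krt13 did. With every library, 15.5% of all genes were called higher in the WT label (30.4% in either direction), and 24.1% higher and 23.2% lower in the KO label. Of the lists of other cell types, all 5 smooth muscle genes were lower in tumors of both labels. Their summed level was 139 to 310 FPKM in the young WT tumors, 2180 FPKM in the old one, 203 to 1079 FPKM in KO tumors and 735 to 5442 FPKM in normal tissue. Leukocyte genes were higher for 2 of 6 in both labels (S100a8 and Csf1r), with a summed level of 111 to 879 FPKM in KO tumors, 26.2 to 85.8 FPKM in KO normal tissue, 65.8 to 589 FPKM in WT tumors and 26.2 to 57.2 FPKM in WT normal tissue. Fibroblast genes were higher for 1 of 4 in the WT label and 3 of 4 in the KO label. Their summed level was 275 to 746 FPKM in WT tumors, 148 to 458 FPKM in WT normal tissue, 469 to 1012 FPKM in KO tumors and 275 to 387 FPKM in KO normal tissue. The part of these cell types in the keratin differences was not tested. Relative to Krt8, an epithelial denominator, Krt36 was at 51.6 to 84.6 per 1000 FPKM of Krt8 in WT-young tumors, 1.75 to 69.3 in KO tumors and 0.106 to 0.859 in normal tissue.

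Genes that work with keratin filaments were tested beside them. Over all genes 15.5% were called higher in the WT label (30.4% in either direction), and 24.1% higher and 23.2% lower in the KO label. Of 16 genes for desmosomes, hemidesmosomes and linker proteins, which tie the filaments to the cell surface, 1 was higher in WT tumors and 3 were higher and 1 lower in KO tumors. The counts for these 16 genes were below the shares over all genes. Itga6, a hemidesmosome integrin chain, was higher in both (0.82, adjusted p = 0.0449, and 1.16, adjusted p = 0.000568), and Ppl, a plakin linker, in the KO label (1.66, adjusted p = 0.0047). Of the 10 tested squamous genes that are not keratins, Ly6d was higher in both labels, by 2.70 (adjusted p = 0.0036) and 2.16 (adjusted p = 0.00157). Dsc3 and Tgm1 were also higher in the KO label. Among 11 other intermediate filament genes, Vim and Lmnb1 were higher, and Des, Gfap, Nefl, Prph and Synm lower, in both labels. Of 10 colon epithelium genes 4 were lower in both, Cdx1, Cdx2, Lgals4 and Phgr1. Urothelium and mesothelium also use Krt7. Of the tested urothelial markers Upk3a was higher and Upk1a lower in tumors of both labels. The summed list ran from 3.96 to 15.2 FPKM over all 24 libraries. The mesothelial markers Wt1, Upk3b and Lrrn4 were at or under 0.0750 FPKM in every tumor, and Msln was higher in both labels.

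The series title names the comparison of c-MAF KO with wild type. In tumors limma called 0 of 19 keratins, where 0.00725% of all genes were called, and 0 keratins had an unadjusted p under 0.05, where 8.31% of genes did. Krt36 was lower in the tumors labelled KO by 1.76 (log2 -1.76, SE 0.86, adjusted p = 0.608) and Krt84 by 1.15 (log2 -1.15, SE 0.61, adjusted p = 0.642), neither past the threshold. The WT tumors include the WT-old tumor, where Krt36 was at 2.49 FPKM; without it the differences were -2.94 (adjusted p = 0.115) for Krt36 and -1.93 (adjusted p = 0.190) for Krt84. With array weights, which let limma weigh libraries unequally, 7 keratins were lower in the KO label: Krt4, Krt13, Krt14, Krt16, Krt18, Krt35 and Krt36, where 9.96% of all genes were called lower. That fit gave WT-young tumor 2, the library with high Krt5 and Krt14, the largest weight of all (5.72) and KO-8-hetero tumor 2 a weight of 0.382. In normal tissue limma called 0 of 19, with or without array weights, against 0% of all genes, and 0 had an unadjusted p under 0.05, against 4.67%. Krt85 was the only keratin whose values in normal tissue labelled KO (0.738 to 2.41 FPKM) all exceeded those labelled WT (0.420 to 0.729 FPKM), where 0.355% of genes did. The test of whether the tumor-normal difference differs between labels called 0 of 19 with or without array weights, with 1.15% and 0% of all genes called, and 0 at an unadjusted p under 0.05, against 4.74%. For Krt36 that difference of differences was -2.0 (SE 1.32, adjusted p = 0.986), and -3.19 (adjusted p = 0.601) without the WT-old tumor.

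The single title groups were set against the WT-young tumors, and these 3 comparisons share those 4 libraries. KO-1-hetero tumors had 3 of 19 keratins called, all lower, where 2.88% of all genes were called and 1.25% were called lower. Krt36 was at 18.3, 16.4 and 4.19 FPKM in KO-1-hetero tumors against 166 to 262 FPKM in WT-young, a log2 difference of -4.14 (SE 0.75, adjusted p = 0.0117). Krt35 was at 0.0601, 0.458 and 0.0355 FPKM against 2.14 to 14.4 FPKM, a difference of -2.59 (SE 0.64, adjusted p = 0.0402). Krt18 was at 364, 465 and 420 FPKM against 706, 655, 729 and 740 FPKM, a difference of -0.77 (SE 0.17, adjusted p = 0.0315). Ranges did not overlap for these 3 or for Krt7, Krt8, Krt13 and Krt84, all lower in KO-1-hetero, where 14.8% of genes were so; Krt7 had a difference of -0.87 (adjusted p = 0.0632) and Krt84 of -2.39 (adjusted p = 0.0662).

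These calls rested on few libraries. The count was 0 without KO-1-hetero tumor 1 or 3, where Krt36 kept differences of -4.48 (adjusted p = 0.0503) and -3.53 (adjusted p = 0.0724), and 1, Krt36, without WT-young tumor 1, 2 or 3. Leaving out WT-young tumor 4 ended the call of Krt18 (adjusted p = 0.0689), and leaving out KO-1-hetero tumor 2 ended that of Krt35 (adjusted p = 0.0611). The spread is shared by all 24 libraries, so libraries outside the comparison also moved the calls. Krt35 was not called without KO-1-hetero normal 1 or 2, KO-8-homo tumor 3, or KO-8-homo normal 1 or 2, and the count was 5 without KO-8-hetero tumor 2 or 3. Without both squamous libraries Krt13, Krt18 and Krt36 were called, where 0.674% of all genes were called lower, and Krt35 was not (-2.21, adjusted p = 0.103). Summed smooth muscle genes were at 587 to 875 FPKM in KO-1-hetero tumors and 139 to 310 FPKM in WT-young tumors, with 2 of 5 genes called higher (Cnn1 and Des). With every library, 2.88% of all genes were called in this comparison, and 1.25% were called lower. Leukocyte genes were higher for 2 of 6 (Cd3e and Cd79a), with sums of 111 to 211 FPKM in KO-1-hetero and 65.8 to 253 FPKM in WT-young tumors. Msln, the tested mesothelial gene, was lower by 2.49 (log2 -2.49, adjusted p = 0.0317). The part of these cell types in the keratin results was not tested. Per 1000 FPKM of Krt8, Krt36 was at 1.75 to 9.55 in KO-1-hetero and 51.6 to 84.6 in WT-young tumors, which do not overlap. Krt18 was at 176 to 217 and 161 to 287 per 1000 FPKM of Krt8, which do overlap. Krt8 itself was lower in KO-1-hetero tumors without overlap, so a fall shared by both genes does not show in this ratio.

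KO-8-hetero against WT-young tumors had 0 of 19 keratins called by limma, with or without array weights, where 0.00725% of genes were called, and 3 at an unadjusted p under 0.05, where 6.96% of genes were. Krt36 was at 56.6, 44.9 and 7.84 FPKM, a difference of -2.89 (SE 0.75, adjusted p = 0.497), and Krt84 at 11, 11 and 1.23 FPKM, a difference of -1.94 (SE 0.68, adjusted p = 0.705). Both lay below all WT-young tumors, where 4.39% of genes did. Without KO-8-hetero tumor 3 the difference of Krt84 was -1.13 (adjusted p = 0.647). Without KO-8-hetero tumor 1 the count was 2, with Krt36 lower (-3.39, adjusted p = 0.0487) and Krt83 higher (0.91, adjusted p = 0.0392). KO-8-homo against WT-young tumors had 0 called, where 0.457% of genes were, and 5 at an unadjusted p under 0.05, where 10.1% were. Array weights called 2, Krt18 and Krt35, both lower, where 6.74% of genes were. Krt36 was at 123, 12.9 and 130 FPKM in KO-8-homo tumors, a difference of -1.80 (SE 0.75, adjusted p = 0.414), and -0.74 (adjusted p = 0.954) without KO-8-homo tumor 2. Krt8, Krt18, Krt19 and Krt36 all lay below the WT-young tumors, where 11.4% of genes did. Within each of these groups Krt36 spanned a wide range, with 1 tumor well below the other 2.

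Between the groups labelled KO, KO-8-homo against KO-8-hetero tumors gave 0 called keratins with or without array weights, where 0.058% and 0.0507% of genes were called, and 1 at an unadjusted p under 0.05, where 5.8% were. Leaving out KO-8-hetero tumor 1 brought 3 calls, all lower in KO-8-homo: Krt20 (-1.89, adjusted p = 0.0434), Krt83 (-1.0, adjusted p = 0.0299) and Krt85 (-0.88, adjusted p = 0.0378). Krt20 was at 116, 208 and 198 FPKM in KO-8-homo and 130, 587 and 665 FPKM in KO-8-hetero tumors. KO-1-hetero against KO-8-hetero tumors gave 0 called with or without array weights, where 0% of genes were called, and 6 at an unadjusted p under 0.05, where 9.88% were. All 19 differences were below 0 with every library, with a median of -1.25 against -0.0063 over all genes. Without both squamous libraries 16 of 19 were below 0, and Krt10 (0.13), Krt16 (0.17) and Krt80 (0.09) were above 0. The share of all genes below 0 was not counted, and the 19 signs come from the same libraries, so they are not separate observations. Krt7, Krt17 and Krt18 were lower in KO-1-hetero without overlap, where 7.06% of genes were, with Krt7 at 192, 268 and 160 FPKM against 303, 572 and 270 FPKM (difference -0.83, SE 0.26, adjusted p = 0.276, and -0.50, adjusted p = 0.906, without KO-8-hetero tumor 2). Without KO-8-hetero tumor 3, Krt15 was called lower (-3.30, adjusted p = 0.0175).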

How the data were processed

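Expression was measured by RNA-seq in 24 mouse colorectal libraries made with a stranded TruSeq mRNA kit, per the labels' protocols. Each library has its own table, in which the authors deposited FPKM per gene symbol, per the file headers. The submitters' processing notes name TopHat2 2.1.1, Bowtie2 2.2.8, SAMtools 0.1.18, Cuffdiff 2.2.1 and build mm10. The annotation and the scaling between libraries are not given in the sources used here. Reads of near-identical keratins can be divided among them by the authors' counting.

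Groups came from the sample titles. Values were transformed as log2(FPKM + 1), and the 13799 genes with at least 1 FPKM in at least 4 libraries were kept. limma 3.58.1 (R 4.3.3; lmFit, contrasts.fit, eBayes with trend) was fitted to all 24 libraries, two-sided, with Benjamini-Hochberg adjustment over all genes at 0.05. A model of genotype label and tissue served 5 comparisons, and a model of the 10 title groups served 5 more. Scripts were tested on simulated data. Depth was only known relative to other libraries, since FPKM hold no totals. Named keratins were the main members of each role and every keratin tested or called; of other lists, counts and up to 3 genes were named. The members, lists and tests were chosen with earlier results of these data known. Promoter sequences are from RefSeq (GRCm38.p6). Alternatives covered the pseudocount, filter, scaling, weights, trend, the groups in the fit, a replicate block and leaving out libraries. Figures were drawn with matplotlib 3.10.9.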

Additional observations from a re-analysis of the deposited data

Results flagged for a closer look

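In 95 sets of 4 to 9 libraries, 1 keratin in 1 group each, 21 held a library whose gap to the nearest other exceeded the 95% limit of Dixon's test, which chance alone exceeds in about 1 of 20 groups. In the KO tumors KO-8-hetero tumor 2 stood far above the others for Krt10 (936 FPKM), Krt13 (3230 FPKM), Krt14 (3173 FPKM), Krt16 (144 FPKM), Krt17 (194 FPKM), Krt4 (1300 FPKM) and Krt80 (41.1 FPKM). WT-young tumor 2 stood above the other WT tumors for Krt16 (27.2 FPKM), also among the WT-young tumors alone, and for Krt80 (1.87 FPKM). The WT-old tumor stood below the other WT tumors for Krt18 (181 FPKM), Krt23 (3.86 FPKM), Krt36 (2.49 FPKM) and Krt7 (61.1 FPKM). In normal tissue KO-8-hetero normal 2 stood above its group for Krt18 (812 FPKM), Krt8 (5819 FPKM) and Krt85 (2.41 FPKM). In WT normal tissue Krt16 was high in WT-old normal 2 (2.47 FPKM), Krt17 was high in WT-young normal 1 (9.99 FPKM) and Krt83 was low in WT-young normal 2 (1.00 FPKM). Krt10 was low in WT-young tumor 1 (1.05 FPKM) among the WT-young tumors, whose other values were 1.17 FPKM each.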

How the results depend on the processing

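The count of called keratins moved by over 1.5 times under 7 of 21 alternatives between WT tumors and normal tissue, 7 of 18 for KO-1-hetero against WT-young tumors and 0 of 27 in the KO label. With array weights 12 keratins were called between WT tumors and normal tissue, 7 between KO and WT tumors, 9 between KO-1-hetero and WT-young tumors and 2 between KO-8-homo and WT-young tumors. With the compared groups alone in the fit, 6 were called between KO-1-hetero and WT-young tumors. Leaving out single libraries of the groups compared gave 4 to 8 calls between WT tumors and normal tissue, 8 to 9 in the KO label, 0 to 4 for KO-1-hetero, 0 to 2 for KO-8-hetero, 0 to 3 for KO-8-homo against KO-8-hetero and 0 to 1 for KO-1-hetero against KO-8-hetero. Over all 24 libraries the counts reached 9 in the WT label and 5 for KO-1-hetero. Quantile normalization turned the tumor-normal difference of Krt8 to 0.31 in the WT label and 0.21 in the KO label, and that of Krt19 to 0.14 and 0.18. Without the WT-old libraries Krt8 in the WT label was at 0.0404. The cause of these changes was not tested. Other pseudocounts, filters and scalings kept the counts within 1.5 times, but single calls ended. Without a filter these were Krt7 in the WT label (adjusted p = 0.0639) and Krt35 for KO-1-hetero (adjusted p = 0.0545), and with the groups compared alone Krt7 and Krt23 in the WT label (adjusted p = 0.147 and 0.126). Replicate numbers were shared between tissues, and the deviations of same-numbered libraries from their group means had correlations from -0.16 to 0.35. Each normal group held 2 libraries, whose deviations mirror each other. These correlations therefore cannot tell whether same-numbered libraries came from the same animal, and the labels do not say. In KO-1-hetero and KO-8-hetero, Xist reached 1 FPKM in normal 1 and 2 but not in tumors 1 and 2. Same-numbered tumor and normal libraries of these groups thus differed in Xist. The replicate block was 1 effect per replicate number shared by all groups, so it does not model pairs within a group. It gave 11 calls in the KO label, 6 in the WT label and 2 for KO-1-hetero. It ended the calls of Krt7 and Krt23 in the WT label and of Krt18 for KO-1-hetero. Krt14 was added in the WT label, and Krt4, Krt14 and Krt20 in the KO label. A random block for libraries that share title prefix and number had a consensus correlation of 0.0197. The compared groups alone could not be fitted for the difference between labels. Depth is known only relative to other libraries, so values under 1 FPKM carry no counting interval.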
